A study of Mus musculus with 40 samples.

Results

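The 78 genes described here carry mouse mitochondrial ribosomal protein symbols. They are every gene of the deposited count table whose symbol starts with Mrpl or Mrps followed by a number. Ribosomal proteins under other symbols are outside the set, and a symbol alone does not show that a protein belongs to the ribosome. Of the 55471 genes in the table, 49 carried an Mrpl symbol (large subunit) and 29 an Mrps symbol (small subunit), and 5 pseudogene symbols containing -ps were left out. The genes lay on 17 chromosomes. The libraries were made from midbrain tissue, punched from the ventral tegmental area where dopamine neurons lie, of adult mice labelled C57/Bl6 or DBA (C57 and DBA below). In each strain and sex, 5 libraries came from control mice and 5 from mice that had gone through repeated cross fostering (RCF), in which pups were handed to a different adoptive mother daily from postnatal day 1 to 4, so that the 40 libraries formed 8 groups of 5. The labels name no transgene. They do not tie libraries to animals or litters, and the p-values therefore speak only of how far libraries of a group spread. The comparisons asked whether RCF left a difference in the adult midbrain in each strain and sex, and how the same genes differed between the strains and between the sexes.

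Mitochondria keep their own ribosomes, which translate the few respiratory chain proteins encoded in mitochondrial DNA. The RNA parts of these ribosomes come from the mitochondrial genome, whereas all of their proteins are encoded in the nucleus, made in the cytosol and imported. Some of the proteins have counterparts in bacterial ribosomes and others exist only in mitochondria. Neurons depend heavily on oxidative phosphorylation, and dopamine neurons are known for a high energy demand.

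Of the 78 genes, 69 had a promoter window in RefSeq (GRCm38.p6, 75 windows of 300 bases, 250 before the start and 50 after it). Both strands were searched for 3 letter strings: the palindromic core of nuclear respiratory factor 1 (NRF1), CCGGAAGT, an ETS core of the kind bound by GABP, and AAGATGGCG, a YY1 core. All 3 factors are known regulators of nuclear genes for mitochondrial proteins. The NRF1 core was in 4.0% of the windows of these genes and in 0.971% of the 32851 windows of all genes. The ETS core was in 16% against 3.89%, the YY1 core in 10.7% against 1.4%, and any of the 3 in 29.3% against 6.05%. A match is a string of letters and not a measured binding site, and the windows of neighbouring starts of a gene overlap. The 250 bases before the start are printed for Mrpl20, the gene that passed the test between RCF and control in DBA females. The same stretch is printed for the 3 genes whose strains did not overlap in any library (Mrps14, Mrpl3 and Mrpl55). These stretches are C57 reference sequence, 5′ to 3′ on the gene's strand, with a motif in capitals. No DBA sequence was used here.
Mrpl20, chr4:155802628-155802877, plus strand: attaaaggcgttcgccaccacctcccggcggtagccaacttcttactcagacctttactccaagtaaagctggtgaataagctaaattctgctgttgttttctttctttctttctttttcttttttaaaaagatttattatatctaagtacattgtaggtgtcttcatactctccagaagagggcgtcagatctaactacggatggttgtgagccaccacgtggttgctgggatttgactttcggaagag
Mrps14, chr1:160194965-160195214, plus strand: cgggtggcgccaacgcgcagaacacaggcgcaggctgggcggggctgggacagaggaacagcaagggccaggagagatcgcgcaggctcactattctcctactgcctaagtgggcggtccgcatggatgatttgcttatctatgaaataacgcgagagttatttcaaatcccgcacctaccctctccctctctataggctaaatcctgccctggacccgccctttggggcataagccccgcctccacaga
Mrpl3, chr9:105053018-105053267, plus strand: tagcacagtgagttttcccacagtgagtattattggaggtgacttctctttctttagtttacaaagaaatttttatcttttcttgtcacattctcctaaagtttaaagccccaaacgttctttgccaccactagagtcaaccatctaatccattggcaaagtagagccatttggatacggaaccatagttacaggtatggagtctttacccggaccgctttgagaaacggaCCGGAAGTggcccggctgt
Mrpl55, chr11:59202236-59202485, plus strand: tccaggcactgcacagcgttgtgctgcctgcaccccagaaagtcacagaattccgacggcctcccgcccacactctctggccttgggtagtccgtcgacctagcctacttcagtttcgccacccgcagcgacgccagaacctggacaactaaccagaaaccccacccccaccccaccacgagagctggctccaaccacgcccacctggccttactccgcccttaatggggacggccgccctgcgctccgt
Of these 4 stretches only that of Mrpl3 held one of the 3 strings, the ETS core, which begins 19 bases before the RefSeq start.

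Total counts ran from 16913124 to 28179071 per library, and the 78 genes together took 0.1912% to 0.2293% of them. Regional markers varied widely within groups. A pair of defining genes of dopamine neurons were low in many libraries: Th, tyrosine hydroxylase, was under 20 CPM (read counts relative to the scaled library total) in 12 of them (range 0.725 to 1644) and Slc6a3, which encodes the dopamine transporter, in 18 (0.460 to 2959). Slc17a7, a glutamate transporter of cortical neurons, was above 400 CPM in 4 libraries (C57 male control replicates 1 and 5, C57 female RCF replicate 4 and DBA female control replicate 3) and at most 97.3 CPM in the others. In bulk tissue, fewer cells of a type and less RNA per cell cannot be told apart.

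All but 1 of the 78 genes were expressed enough to be tested. Mrpl53, a large subunit protein gene, had 30 counts over the 40 libraries, was at 0 in 27 of them and was filtered out. Of its exon sequence, 88.0% lies in Gm42688, a gene model on the same strand that had 2772 counts, so its own level cannot be read from these counts. The remaining 77 genes differed less between libraries of a group than most genes did. Their median within-group SD of log2 CPM was 0.14, against 0.29 for all 18441 genes tested and 0.23 for the 8628 genes in the same range of level, and 76 of the 77 lay below the median of all genes. The spread within groups was smallest for Mrps7, Mrpl51, Mrps14, Mrpl10 and Mrpl50 and largest for Mrps18c, Mrps6, Mrpl33, Mrps36 and Mrpl34.

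Levels of different genes were compared per exon length, as CPM per kb. Over the 40 libraries the highest mean was that of Mrpl41 at 42.4 CPM per kb, followed by Mrps21 at 38.0, Mrpl12 at 34.5, Mrpl10 at 31.5 and Mrps12 at 30.5. Mrpl12 encodes a protein of the factor-binding stalk of the large subunit together with Mrpl10, and Mrps12 a protein of the decoding centre. The lowest were Mrpl33 at 0.600, Mrpl23 at 1.35, Mrps35 at 2.30, Mrps18c at 2.69 and Mrps10 at 3.05 CPM per kb, and the median gene stood at 11.2. The Mrpl and Mrps medians were 12.1 and 8.57 CPM per kb. Lengths were those of all annotated exons of a gene, which lowers the value of genes with long or many alternative exons, Mrpl33 (7326 nt) among them. Neighbours in this order were mostly closer than their range over libraries.

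**Figure D1:**
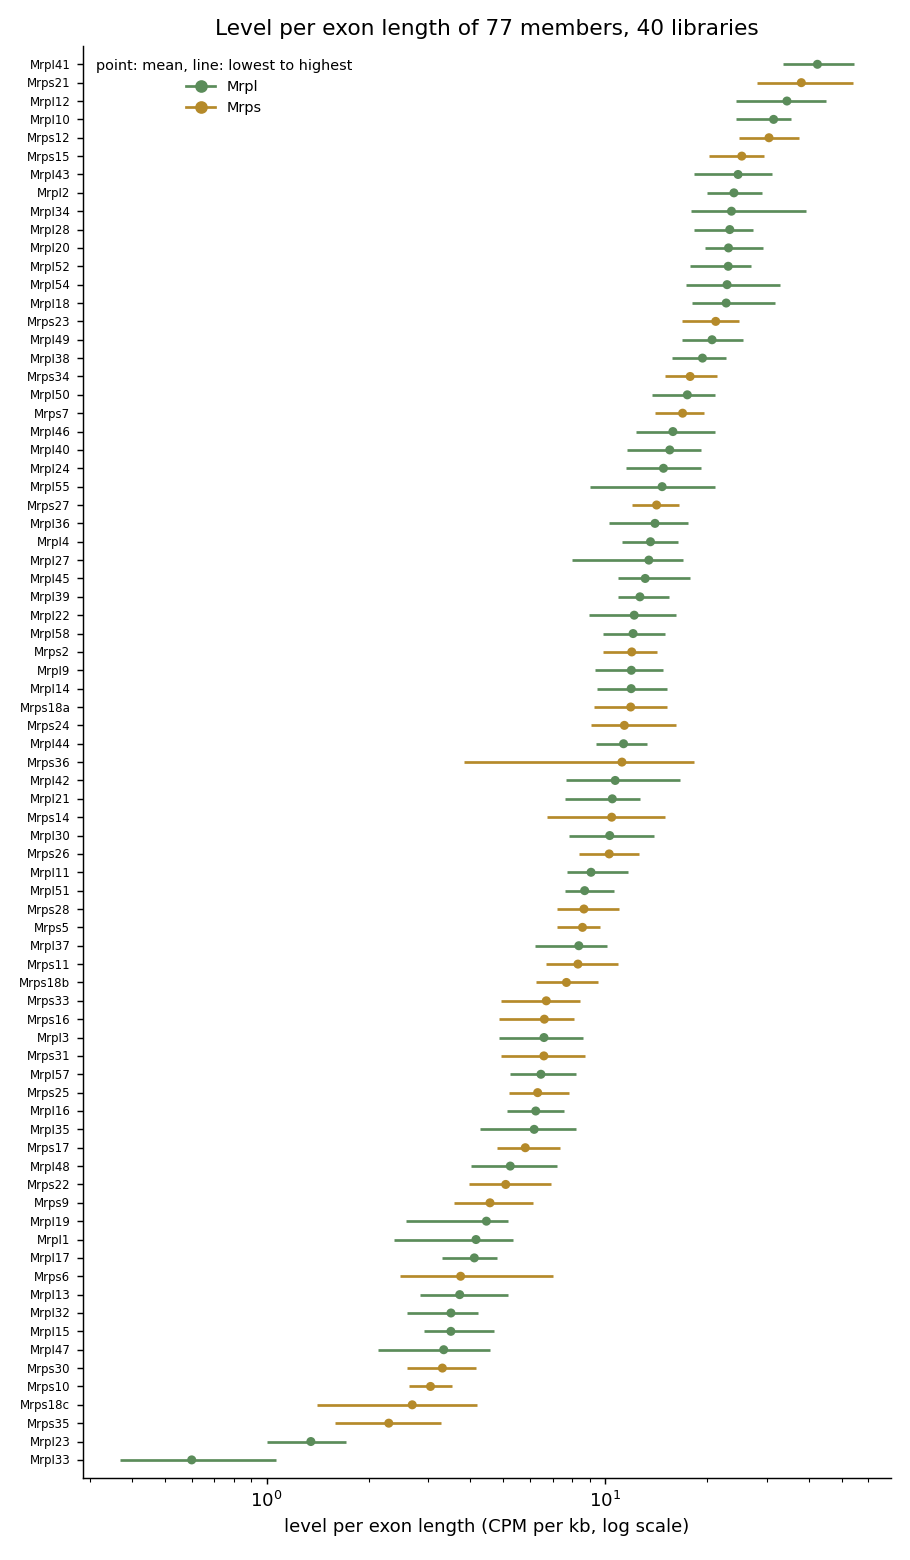
Level per exon length (CPM per kb, log axis) of the 77 tested genes, ordered from highest to lowest. Points are means over 40 libraries and lines run from the lowest to the highest library; Mrpl41 stands at 42.4 and Mrpl33 at 0.600 CPM per kb.

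In DBA females, Mrpl20 was lower in RCF than in control libraries. It was the only mitochondrial ribosomal protein gene to pass the test in any of the 4 comparisons of RCF with control. This fall was already known when the set of genes was chosen, so the values below are a description and not independent support. Mrpl20 (ENSMUSG00000029066.12, GRCm38 chromosome 4, 155802878 to 155809975, plus strand) encodes a large subunit protein whose bacterial counterpart binds ribosomal RNA early in assembly. The 5 DBA female controls had 45.6, 48.6, 48.5, 41.3 and 48.2 CPM (mean 46.5 ± 3.11 SD). The 5 DBA female RCF libraries had 32.9, 35.6, 35.6, 37.8 and 36.4 CPM (mean 35.6 ± 1.77 SD). The groups did not overlap, and the lowest control was above every RCF library. On the log2 scale RCF differed from control by -0.38 (SE 0.07, edgeR adjusted p = 0.0314), a level 23.2% lower.

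The DBA female controls were the group that stood apart from the rest in Mrpl20. They ran from 41.3 to 48.6 CPM with a median of 48.2, while the other 35 libraries ran from 32.9 to 43.3 with a median of 36.4, and 5 of those 35 were above 41.3. The RCF libraries of DBA females, at 32.9 to 37.8, included the lowest of all 40 and otherwise lay within the range of the other 6 groups. Controls of the other groups were at 35.6 to 40.5 CPM in C57 males, 34.9 to 43.3 in C57 females and 35.6 to 42.6 in DBA males. RCF libraries were at 34.6 to 41.1, 34.0 to 42.2 and 33.4 to 37.2 CPM in the same order.

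**Figure D2:**
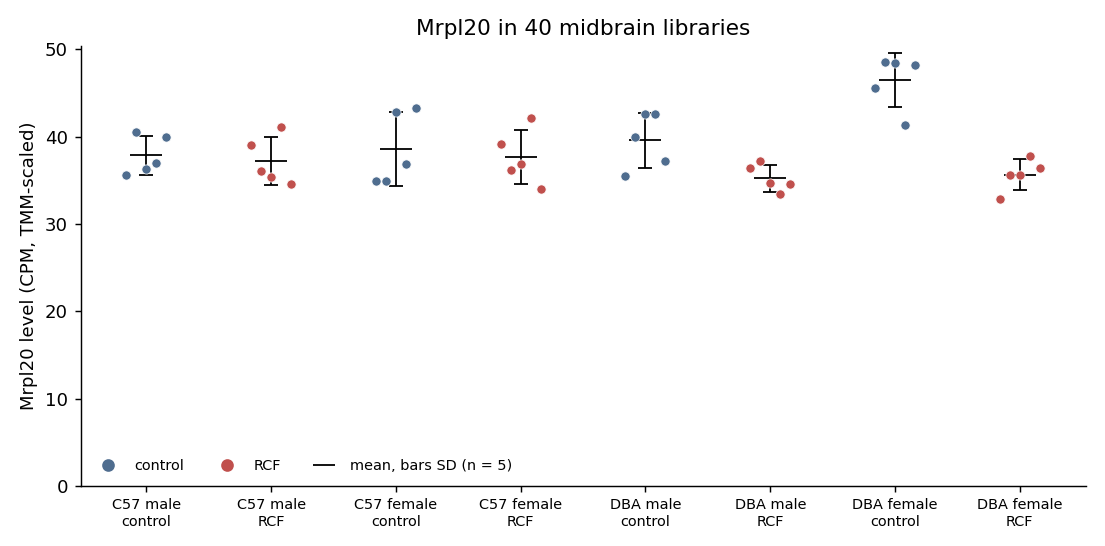
Mrpl20 level (CPM, linear axis from 0) in each of the 40 libraries, by group. Points are libraries, horizontal marks are means and bars are SD (n = 5). The DBA female controls sit between 41.3 and 48.6 and the DBA female RCF libraries between 32.9 and 37.8.

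The change in Mrpl20 was close to the threshold. Over all alternatives the call was kept in 3 and lost in 15. It passed in DESeq2 (adjusted p = 0.00167) and limma voom (0.0410). It missed the threshold without the low count filter (0.284), in a fit of the 10 libraries alone (0.121) and with 4 marker lists as covariates (0.0778). It also missed with a replicate block (0.0549), with RLE size factors (0.0541) and without the 4 libraries with high Slc17a7 (0.0579). Leaving out DBA female control replicate 4 kept the call (0.0208), whereas leaving out any other library of either group lost it (0.0584 to 0.286), although the log2 value stayed between -0.35 and -0.42.

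Most other members were also lower in the RCF libraries of DBA females, by amounts that did not pass the test. Of 77 genes, 63 had a negative and 14 a positive log2 fold change, with a median of -0.11 against -0.01 over all genes tested. The count past the threshold was 1, where 0.0163% of all genes tested passed in either direction and 0.0108% lower. At an unadjusted p under 0.05, 15 were lower and 1 higher, together 20.8% of the members, against 12.3% of all genes. Of 48 large subunit symbols tested 41 were lower, and of 29 small subunit symbols 22 were. Among those with a bacterial counterpart, 27 of 29 large and 12 of 15 small subunit genes were lower. Among those listed as found only in mitochondrial ribosomes, 14 of 19 large and 6 of 9 small subunit genes were. Mrpl55, Mrps18a, Mrps18b, Mrps28 and Mrps36 were put in neither class and are not in the counts by class.

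In 5 members the DBA female groups did not overlap, all lower in RCF: Mrpl20, Mrpl18, Mrps21, Mrps24 and Mrps30. Over all genes tested, 4.29% had groups that did not overlap in this comparison and 2.55% did so with lower RCF values. Mrpl18 encodes a large subunit protein of the family that binds 5S ribosomal RNA in other ribosomes. It had 37.8, 39.2, 33.9, 34.3 and 40.7 CPM in the controls and 27.4, 28.2, 27.8, 30.6 and 28.5 in the RCF libraries. The log2 difference of Mrpl18, -0.38, was as large as that of Mrpl20 but had a wider error (SE 0.11, adjusted p = 0.222). The gene shares 141 nt of exon sequence with Tcp1, a chaperonin gene on the opposite strand with 202801 counts against 29758 for Mrpl18.

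Mrps30, which in spite of its symbol encodes a protein of the large subunit, had 25.1, 27.6, 23.7, 24.01 and 24.1 CPM in the DBA female controls. Its RCF libraries had 21.1, 21.0, 19.4, 21.3 and 21.3 CPM (log2 fold change -0.26, adjusted p = 0.232). Mrps24, a small subunit protein at the mRNA entry side, had 18.2, 20.5, 17.4, 16.1 and 16.85 CPM in controls against 14.2, 13.7, 13.4, 13.98 and 15.2 (-0.34, adjusted p = 0.232), and it shares 226 nt of exon sequence on the same strand with Urgcp. Mrps21, a small subunit protein, ran from 28.3 to 32.8 CPM in controls and from 20.8 to 27.9 in RCF (-0.28, adjusted p = 0.291). The largest positive values by p were those of Mrps15 (0.17), Mrpl33 (0.32) and Mrps10 (0.11 on the log2 scale), with adjusted p from 0.373 to 0.542, and Mrpl33 was at 0.21 without control replicate 2.

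Other genes of mitochondrial translation gave no call in DBA females. All 5 ribosomal proteins under other symbols (Dap3, Ptcd3, Chchd1, Aurkaip1 and Gadd45gip1) had negative values, with a median of -0.10. Translation factors were lower in 9 of 16 (median -0.01), assembly factors in 13 of 23 (-0.03) and mitochondrial tRNA synthetases in 13 of 19 (-0.08), each with 0 called. Tufm, the mitochondrial elongation factor Tu, stood at -0.20 (adjusted p = 0.267). Of the genes of the mitochondrial genome, whose proteins these ribosomes make, 9 of 9 tested had negative values (median -0.23), and of the nuclear genes of the respiratory chain and ATP synthase, which are translated in the cytosol, 69 of 70 did (-0.19), again with 0 called in each. At an unadjusted p under 0.05, 41 of the 70 and 6 of the 9 were lower.

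Markers of other cells and regions differed in level in the same comparison, and none of them passed the test. All 8 forebrain glutamate neuron markers had negative values in DBA females (median log2 fold change -2.60), with a summed level of 484 to 5413 CPM in controls and 346 to 554 in RCF. All 10 oligodendrocyte markers had negative values (-0.38; 7701 to 14700 against 5563 to 15060 CPM) and all 10 dopamine neuron markers positive ones (1.46; 224 to 1120 against 212 to 4771 CPM). Median sums in controls and RCF were 552.1 and 494.9 CPM for forebrain markers and 13110 and 10740 for oligodendrocyte markers. For dopamine neuron markers they were 421.5 and 397.4 CPM, opposite in direction to the 10 values. None of these markers was at 0 throughout a group. Without DBA female control replicate 3, which carried the forebrain markers, 67 of 77 members were lower with a median of -0.12. A further fit took 4 marker lists as covariates (dopamine neuron, forebrain glutamate neuron, hypothalamus and oligodendrocyte). In it 66 members were lower, the median was -0.09, and Mrpl20 stood at -0.38 (edgeR adjusted p = 0.0778).

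The genes around Mrpl20 did not pass the test in DBA females. Of 15 protein-coding genes within 100 kb, 14 were tested, 9 had negative and 5 positive values, and the median was -0.10. One of them, Aurkaip1, also encodes a mitochondrial ribosomal protein and lies 21297 bases beyond Mrpl20; its log2 fold change was -0.21 (adjusted p = 0.281). Ccnl2, a cyclin gene, begins 2514 bases beyond Mrpl20 on the same strand.

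In the other 3 comparisons of RCF with control no member passed the test in edgeR, DESeq2 or limma voom. In C57 males, 43 of 77 had negative values (median -0.02, all genes -0.02), with 0 called where 0.0108% of all genes were called. Without adjustment, 2 members were higher and 0 lower at p under 0.05 (2.6%, all genes 7.07%). Mrps30 was at 0.25 (controls 18.4 to 22.3 CPM, RCF 22.3 to 26.7, adjusted p = 0.634), and its groups overlapped by a small margin. The groups overlapped in every member, where 0.938% of all genes had groups that did not and 0.412% had all RCF values lower. Mrpl17 (0.16) and Mrpl44 (0.17) followed, and on the other side Mrps36 (-0.31), Mrpl16 (-0.16) and Mrps21 (-0.19). Leaving out a control moved Mrps36 to -0.21 (without replicate 3) and Mrps21 to -0.11 (without replicate 5). Mrpl20 was at -0.02. None of the markers of other cells passed the test here either. Forebrain markers had negative values in 8 of 8 (median -2.57; 238 to 5460 CPM summed in controls, 360 to 854 in RCF) and oligodendrocyte markers in 10 of 10 (-0.37; 9441 to 27190 against 8826 to 18250 CPM). Dopamine neuron markers had positive values in 10 of 10 (1.05; 182 to 4111 against 243 to 7044 CPM). Median sums of forebrain markers went the other way from their values, at 545.4 CPM in controls and 647 in RCF. Those of oligodendrocyte markers were 17200 and 13750 CPM, and those of dopamine neuron markers 796.4 and 1602. The part of these markers was not tested.

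In C57 females, 44 of 77 members had negative values (median -0.01, all genes 0.01), and 0 were called, where 0.00542% of all genes were. Without the 4 libraries with high Slc17a7, of which RCF replicate 4 is in this comparison, 55 were negative (median -0.04), and with marker covariates 50 were (-0.03). At an unadjusted p under 0.05, 1 member was higher and 4 lower (6.49%, all genes 12.5%). Mrpl33, a small protein of the large subunit, had 5.73, 5.96, 5.23, 4.98 and 5.61 CPM in the controls and 4.00, 4.02, 3.79, 3.47 and 4.09 in the RCF libraries. These groups did not overlap, as in 2.51% of all genes (1.23% with RCF lower), and the log2 fold change was -0.50 (SE 0.19, adjusted p = 0.274). In DBA females the value for Mrpl33 was positive (0.32), and the difference of the RCF effect between strains, taken over both sexes, did not pass the test (0.32, adjusted p = 0.862). Mrpl37 (0.23), Mrpl9 (0.19) and Mrps6 (0.29) had the smallest p among positive values, and Mrpl38 (-0.19) and Mrps30 (-0.18) followed Mrpl33 among negative ones. Without RCF replicate 1, Mrpl9 was at 0.12 and Mrps6 at 0.19. Mrpl20 was at -0.03. Hindbrain markers were higher in this comparison in all 3 tested (median 5.16, 1 of them called). Summed over the 7 listed, they had 0.551 to 2.19 CPM in controls (median 1.158) and 2.05 to 426 in RCF libraries (2.713). Dopamine neuron markers were higher in 10 of 10 (1.22), with median sums of 393.9 CPM in controls and 4487 in RCF. Oligodendrocyte markers were higher in 10 of 10 (0.51) and microglia markers in 8 of 8 (0.28). Hypothalamus markers were lower in 5 of 7 (-3.83), and 0 were called in each of these 4 lists. The part of these markers was not tested beyond the covariate fit above.

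In DBA males, 54 of 77 had negative values (median -0.05, all genes -0.01) and 0 were called, where 0.0163% of all genes were. Unadjusted p under 0.05 was found for 6 members lower and 0 higher (7.79%, all genes 6.72%). Small subunit symbols were lower in 24 of 29. Mrpl24 did not overlap between the groups, as in 0.629% of all genes (0.325% with RCF lower). It had 29.5, 28.97, 29.8, 43.2 and 32.98 CPM in the controls and 25.96, 27.4, 27.4, 28.9 and 28.7 in RCF (log2 fold change -0.25, adjusted p = 0.599). Control replicate 4 was far above the other controls in Mrpl24, and the value was -0.14 without it. Mrps6 (-0.45) and Mrpl20 (-0.17, SE 0.07, adjusted p = 0.733) came next among negative values, and Mrpl19 (0.19), Mrps5 (0.11) and Mrpl10 (0.10) had the smallest p among positive ones. Control replicate 4 weighed on these too: without it Mrps6 was at -0.17, Mrpl19 at 0.06, Mrps5 at 0.05 and Mrpl10 at 0.03 (Mrps5 was at 0.07 without control replicate 1). Of all 40 libraries, control replicate 4 had the lowest total count (16913124) and the lowest mean level of oligodendrocyte markers. Dopamine neuron markers were lower in 9 of 10 (median -3.03), from 214 to 8859 CPM summed in controls to 243 to 590 in RCF libraries. The median of this sum went the other way, at 267 CPM in controls and 286.1 in RCF. Among the controls, replicate 3 had the highest dopamine marker level. The part of these markers in the values above was not tested.

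**Figure D3:**
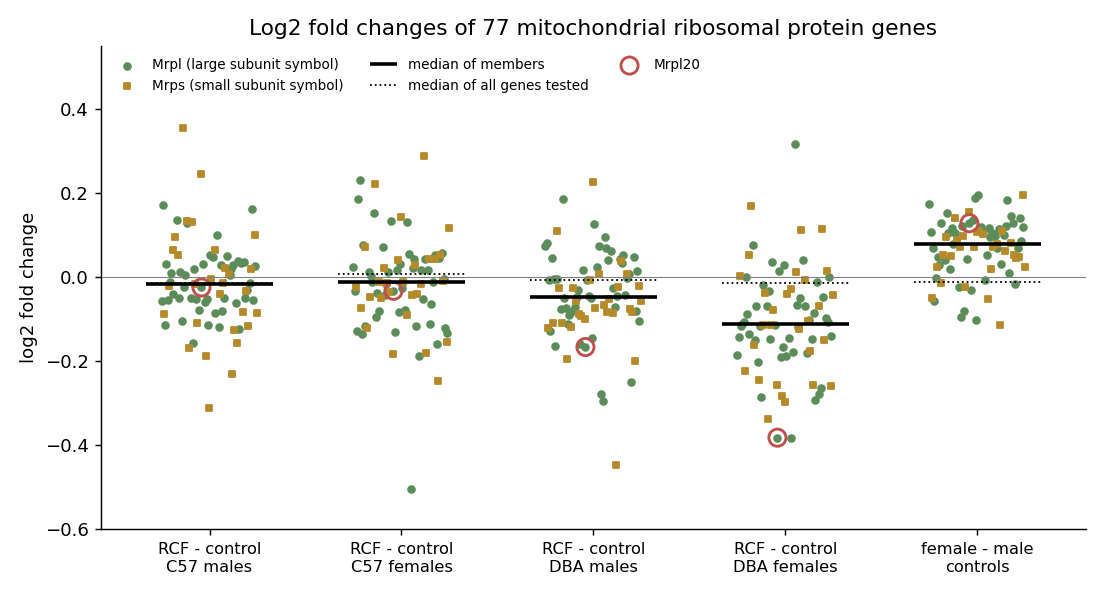
Log2 fold change of the 77 tested genes in the 4 comparisons of RCF with control and between female and male controls. Each point is a gene (circles Mrpl, squares Mrps), thick lines are the medians of these genes and dotted lines the medians of all genes tested; the median is lowest in DBA females (-0.11) and Mrpl20 is ringed.

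Averaged over the 4 strain and sex groups, members had slightly lower values in RCF libraries and none passed the test in edgeR, DESeq2 or limma voom. Of 77 genes, 69 had negative values with a median of -0.04 (all genes -0.01), and 0 were called, where 0.0217% of all genes were. At an unadjusted p under 0.05, 8 were lower and 1 higher (11.7%, all genes 6.95%). Mrpl20 had the smallest p of the members (-0.15, SE 0.04, adjusted p = 0.308), followed by Mrps16 (-0.13) and Mrpl57 (-0.11). Mrps5, a small subunit protein, was at 0.07 (adjusted p = 0.692) and was the only member with positive values in all 4 comparisons, which share no libraries. Negative values in all 4 were found for 13 members, or 16.9%, against 5.56% of all genes. They were Mrpl11, Mrpl13, Mrpl14, Mrpl16, Mrpl20, Mrpl21, Mrpl28, Mrps7, Mrps11, Mrps14, Mrps16, Mrps17 and Mrps22. Forebrain markers were lower in 8 of 8 in this average as well (median -0.84), with a part that was not tested.

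No difference between RCF effects passed the test for any member in edgeR, DESeq2 or limma voom. For DBA against C57, 57 of 77 values were negative (median -0.05), 0 were called (0.0108% of all genes), and 9 were lower at an unadjusted p under 0.05 (6% of all genes in either direction). Mrpl20 had the smallest p (-0.25, SE 0.07, adjusted p = 0.763), so that its difference between RCF and control was not shown to depend on strain. Mrps30 (-0.21) and Mrps24 (-0.27) came next, and Mrpl33 (0.32), Mrpl38 (0.12) and Mrps35 (0.16) led the positive side. For females against males, 0 were called (0.00542% of all genes) and 5 had an unadjusted p under 0.05 (8.48% of all genes did). Mrpl20 was at -0.11 (adjusted p = 0.680). Mrps30 had the smallest p (-0.29, adjusted p = 0.464), with 0.25 in C57 males against -0.18 in C57 females. Mrps9 (-0.25) and Mrpl44 (-0.21) followed it, and Mrps6 (0.43), Mrpl48 (0.16) and Mrpl24 (0.14) led the positive side.

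The strains differed in many more of these genes than the treatments did. Among controls 17 of 77 members passed the test between DBA and C57, with 6 higher and 11 lower in DBA. Of all genes tested 16% passed, 7.88% higher and 8.13% lower. The control count fell to 8 (1 higher, 7 lower) with the compared libraries alone, to 7 (1 higher, 6 lower) without the low count filter and to 10 without C57 female control replicate 2. Among RCF mice 18 passed, with 2 higher and 16 lower, where 23.8% of all genes did, 11.3% higher and 12.4% lower. Both member counts in either direction, 22.1% and 23.4%, are near the share of all genes, but in RCF mice the directions were uneven. There 16 members were called lower and 2 higher, and 59 of 77 values were negative (median -0.08, all genes -0.01). In controls 46 of 77 values were negative (median -0.02, all genes 0.01). The 2 comparisons share no library, and 11 members passed in both, which is 64.7% of those called in controls and 61.1% of those called in RCF mice. The same overlap was not counted over all genes, so it cannot be read as particular to the members. All 11 had the same direction, with Mrps14 higher in DBA and the other 10 lower (Mrpl3, Mrpl24, Mrpl35, Mrpl40, Mrpl41, Mrpl42, Mrpl48, Mrpl50, Mrpl55 and Mrps23).

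Mrps14 encodes a small subunit protein with a bacterial counterpart (chromosome 1, 160195215 to 160202170, plus strand), and it had the largest strain difference of the members. In C57 mice it ran from 22.0 to 28.1 CPM in the 10 controls (median 25.6) and from 22.5 to 27.6 in the 10 RCF libraries (median 25.9). In DBA mice it ran from 38.5 to 48.9 (median 43.4) and from 36.5 to 47.2 (median 42.4). Every DBA library was above every C57 library. The log2 difference was 0.78 in controls (SE 0.05, adjusted p = 1.7e-15) and 0.73 in RCF mice (SE 0.05, adjusted p = 1.03e-14), a 1.71-fold and 1.65-fold higher level.

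Mrpl3 and Mrpl55 separated the strains in the other direction. Mrpl3 encodes a large subunit protein near the catalytic centre (chromosome 9, 105053239 to 105079888, plus strand). It ran from 45.9 to 57.5 CPM in the 20 C57 libraries (median 52.1) and from 32.4 to 45.7 in the 20 DBA libraries (median 36.3). The log2 difference was -0.43 in controls (SE 0.05, adjusted p = 1.58e-08) and -0.54 in RCF mice (adjusted p = 6.46e-11). Mrpl55, a large subunit protein with no bacterial counterpart (chromosome 11, 59202486 to 59206134, plus strand), ran from 15.8 to 21.7 CPM in C57 (median 17.9) and from 9.26 to 14.3 in DBA (median 12.1). Its log2 difference was -0.57 in controls (SE 0.07, adjusted p = 4.42e-08) and -0.63 in RCF mice. These 2 and Mrps14 were the 3 members with no overlap between all 20 C57 and all 20 DBA libraries, as found for 1.79% of all genes (0.884% lower in DBA). Within controls the strains did not overlap in 4 members (2.47% of all genes, 1.32% lower in DBA) and within RCF mice in 7 (4.36%, 2.13% lower). Mrpl3 shares 248 nt of exon sequence with Gm38077, a gene model on the same strand with 1781 counts in all.

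Mrpl35, a large subunit protein with a bacterial counterpart (chromosome 6, 71812997 to 71826969, minus strand), ran from 23.9 to 34.3 CPM in C57 and from 17.9 to 24.6 in DBA. A single C57 library, female RCF replicate 5, lay in the DBA range. Its log2 difference was -0.48 in controls (SE 0.06, adjusted p = 1.47e-07) and -0.52 in RCF mice (adjusted p = 2.47e-08). Mrpl41, the gene with the highest level per length, was at -0.28 and -0.36, and Mrpl50 at -0.17 and -0.28. Both encode proteins found only in mitochondrial ribosomes.

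**Figure D4:**
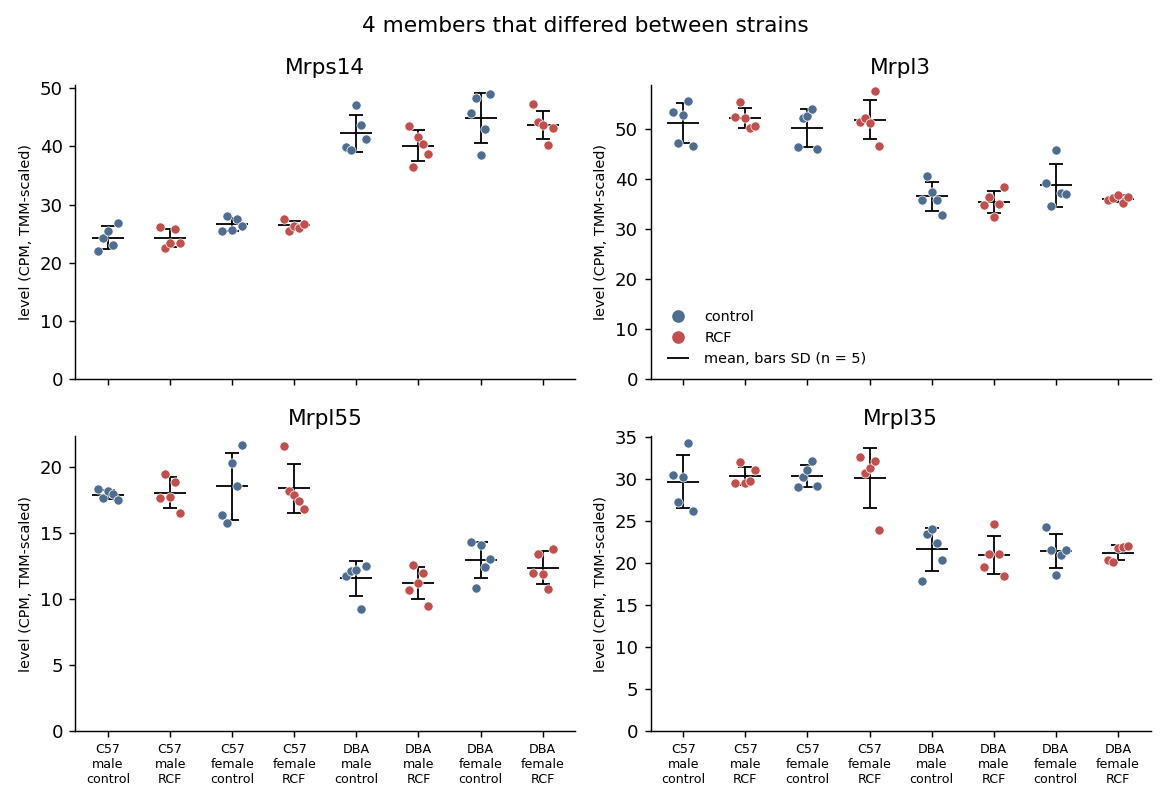
Levels (CPM, linear axes from 0) of Mrps14, Mrpl3, Mrpl55 and Mrpl35 in the 40 libraries by group, with means and SD (n = 5). The 20 DBA libraries lie at 36.5 to 48.9 for Mrps14, above the 20 C57 libraries at 22.0 to 28.1, and below them for Mrpl3 and Mrpl55.

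Mrpl48 was lower in DBA (log2 difference -0.33 in controls and -0.35 in RCF mice), and a near-identical copy of it moved the other way. It ran from 42.4 to 58.9 CPM in C57 and from 32.8 to 43.3 in DBA. The pseudogene Mrpl48-ps matches it at 98.1% over 636 nt and was at 0.234 CPM of total counts on average in C57 (0.0454 to 0.708) and at 1.97 in DBA (1.10 to 2.82). The strains did not overlap in the pseudogene. The gene's own mean was 47.8 CPM in C57 and 37.8 in DBA. How the counting split reads between the gene and its copy was not tested. Its exons also overlap those of Rab6a on the opposite strand over 708 nt. Exons of Mrpl24, also called in both comparisons, overlap those of Rrnad1 on the opposite strand over 594 nt. GRCm38, the build named in the processing notes, is a C57 genome, and the effect of DBA variants on the counts of these genes was not tested. Among the other genes called in both comparisons, Mrpl41 and Mrpl42 had copies with at least 95% identity over at least 200 nt, with 18 and 106 counts over all libraries, and none was found for Mrps14, Mrpl3, Mrpl55, Mrpl35 or Mrpl20.

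Of the 24 members called in either strain comparison, 6 were called in controls alone and 7 in RCF mice alone. Those in controls were Mrpl20 (0.17, adjusted p = 0.0195), Mrps30 (0.16), Mrps34 (0.16), Mrpl37 (0.18) and Mrpl49 (0.16) higher in DBA and Mrps36 (-0.33) lower, all with adjusted p from 0.0195 to 0.045. Exons of Mrps34 overlap those of Mapk8ip3 on the opposite strand over 1309 nt (579962 counts against 34390 for Mrps34). They also overlap those of Nme3 on the same strand over 763 nt, and the effect on the counts of Mrps34 was not tested. The comparison for Mrpl20 shares the DBA female controls with that of RCF in DBA females, and in RCF mice its strain difference was -0.08 (adjusted p = 0.266). Those in RCF mice were Mrps35 (0.24) higher and Mrpl15, Mrpl30, Mrpl32, Mrps6, Mrps7 and Mrps33 lower, of which Mrps7, a small subunit protein of the head, had the smallest p (-0.17, adjusted p = 0.00336). Mrpl38, at 0.13, did not pass (adjusted p = 0.0714). Signs agreed between the 2 comparisons for 56 of 77 members, and the agreement over all genes was not counted. No member's difference between the 2 comparisons passed the test, which is the same test as that of the RCF effect between strains.

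**Figure D5:**
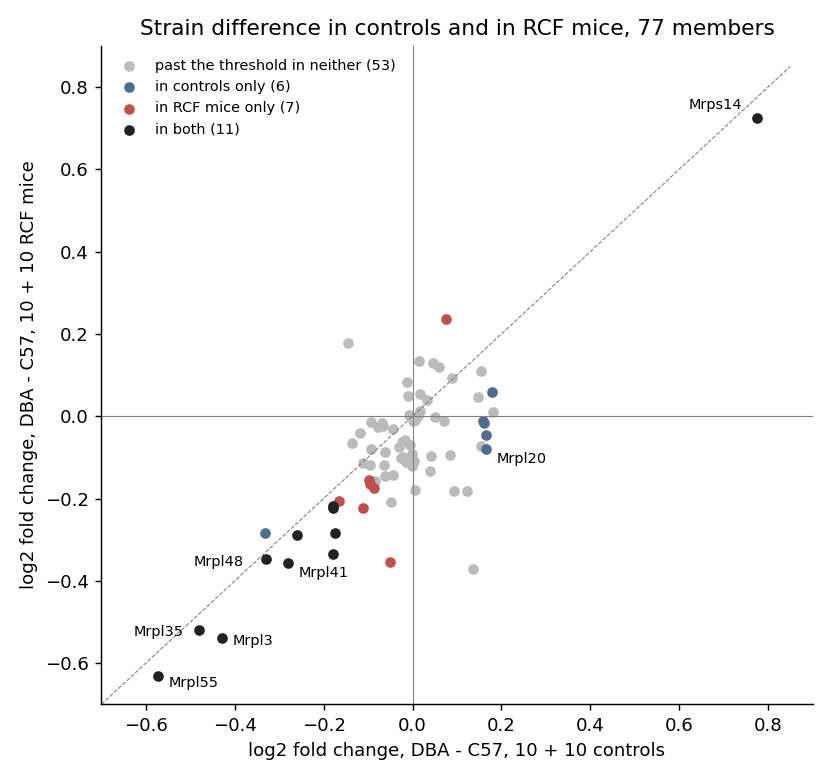
Log2 difference between DBA and C57 for the 77 tested genes, in controls (x axis) and in RCF mice (y axis), with the line of equal values dashed. Mrps14 lies at 0.78 and 0.73, and Mrpl55, Mrpl35 and Mrpl3 at the opposite end.

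Other genes of mitochondrial translation were also called between strains. Over all genes tested, 16% were called in controls (7.88% higher, 8.13% lower) and 23.8% in RCF mice (11.3% higher, 12.4% lower). In controls and in RCF mice alike, 2 of the 5 ribosomal proteins under other symbols were called lower in DBA. In controls these were Dap3 (-0.30) and Ptcd3 (-0.31), both of the small subunit, and Aurkaip1 was called higher. Of the 19 tRNA synthetases, 4 were called higher and 2 lower in controls, with Vars2 (0.32) and Fars2 (0.38) among those called higher. Of the 9 tested genes of the mitochondrial genome, 8 were called lower in DBA controls (median of all 9, -0.27) and 9 in DBA RCF mice (-0.44). Nuclear respiratory chain genes were called in both directions in controls (3 higher, 4 lower of 70) and mostly lower in RCF mice (1 higher, 19 lower). In controls that is a smaller share than over all genes. Near Mrpl20, 4 of 14 tested neighbours were called higher and 2 lower in DBA controls, Pusl1, a pseudouridine synthase gene, having the smallest p (0.50).

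Markers of other cell types also differed between the strains, and their part in the results above was not tested beyond the covariates given here. The shares of all genes called are those of the paragraph before. Endothelial markers were lower in DBA controls in 7 of 7 (median -0.30; 207 to 291 CPM summed in DBA controls against 244 to 351 in C57 controls), and 6 were called. Oligodendrocyte markers were lower in 10 of 10 in controls (-0.36, 0 called) and in RCF mice (-0.55, 5 called), and dopamine neuron markers in 10 of 10 in both (-0.57 with 0 called, and -2.52 with 3 called). Microglia markers were lower in 7 of 8 in both, with 3 called in controls (median -0.24) and 6 in RCF mice (-0.40). Astrocyte markers were lower in 5 of 8 in both, with 3 called lower in each and 1 called higher in controls, and 2 of 3 hindbrain markers were called lower in RCF mice. With 4 marker lists as covariates (dopamine neuron, forebrain glutamate neuron, hypothalamus and oligodendrocyte), 15 members passed in controls and 15 in RCF mice. Of these, 14 each were among those named above. The endothelial, microglia, astrocyte and hindbrain lists were not among the covariates, so their part was not tested.

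Female controls had slightly higher levels of most members than male controls, and no member passed the test in edgeR, DESeq2 or limma voom. Of 77 genes, 63 had positive values with a median of 0.08 (all genes -0.01), and 0 were called where 0.0922% of all genes were (0.038% higher, 0.0542% lower). Without adjustment, at p under 0.05, 18 were higher and 0 lower (23.4%, all genes 10.3%). The smallest p were those of Mrps30 (0.15, adjusted p = 0.279), Mrps9 (0.20) and Mrpl13 (0.19), and on the lower side of Mrpl48 (-0.10), Mrpl16 (-0.10) and Mrpl30 (-0.08). Mrpl20 was at 0.13 (SE 0.05, adjusted p = 0.343). No member had levels that separated the 10 female from the 10 male controls, as 0.0434% of all genes did. The ribosomal proteins under other symbols were higher in 5 of 5 and the nuclear respiratory chain genes in 68 of 70 (median 0.08), with 0 called in each. Dopamine neuron markers were lower in 9 of 10 (median -0.81), with a part that was not tested. The mean log2 CPM over the 77 genes differed more between the sexes in DBA controls (females 4.67, males 4.55) than in C57 controls (4.66 and 4.62). The DBA female controls are also the controls of the RCF comparison in DBA females. The lower values of most members there are thus not independent of this sex difference.

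Taken as a mean of log2 CPM over the 77 genes, groups stood close together. The group means were 4.62 ± 0.05 (SD, n = 5) in C57 male controls, 4.61 ± 0.03 in C57 male RCF, 4.66 ± 0.05 in C57 female controls and 4.64 ± 0.08 in C57 female RCF. In DBA they were 4.55 ± 0.04 in male controls, 4.52 ± 0.03 in male RCF, 4.67 ± 0.06 in female controls and 4.56 ± 0.03 in female RCF. The DBA female controls and the C57 female controls had the highest means, and the libraries of the former (4.58 to 4.73) overlapped those of the DBA female RCF group (4.53 to 4.61).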

How the data were processed

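Per the labels' protocols, RNA from frozen midbrain punches was made into stranded mRNA libraries and read as single 75 nt reads. The submitters' processing notes name bcl2fastq 2.20, cutadapt 1.11 and FastQC and the GRCm38 and mm10 genome names; which aligner, counter and strand setting were used is not given in the sources used here. Raw read counts per gene, with no normalization, are what the authors deposited. Symbols came from GENCODE annotation of GRCm38 for all but 327 of 55471 genes (54487 by versioned identifier, 657 without the version).

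All 40 libraries entered a single edgeR 4.0.16 quasi-likelihood fit (R 4.3.3, robust, TMM factors 0.905 to 1.09, filterByExpr, 8 group means, 32 residual degrees of freedom). It tested 18441 genes, and p-values were adjusted by Benjamini-Hochberg within a comparison over all of them, with a threshold of 0.05. CPM are TMM-scaled unless CPM of total counts is written, and a prior count of 2 was added for log2 CPM. The median SE of a member in an RCF comparison was 0.09 (log2). On simulated counts for the DBA female comparison (18441 genes), 34.3% of 1.5-fold, 64.2% of 2-fold and 95.5% of 4-fold changes were recovered, with 3 false calls. The changed genes were drawn at random from all genes with enough counts. The rates are therefore not those of the members, which spread less within groups, and changes under 1.5-fold were not simulated.

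Members past the threshold were named up to 8 per direction by p (3 where fewer passed), with Mrpl20 always given; members shown for groups that do not overlap, and the other calls in a single strain comparison, were named after their values were seen. The members, the gene lists and the marker lists were chosen with earlier results of these data known, among them the fall of Mrpl20 in DBA female RCF libraries. Alternatives were DESeq2 1.42.0, limma voom 3.58.1, RLE size factors, no low count filter, the compared libraries alone, a replicate block and each library left out; marker covariates and leaving out the 4 libraries with high Slc17a7 were added after seeing the data. Replicate numbers did not pair libraries. No library was a duplicate: in the 80 pairs within groups, chi-square divided by its degrees of freedom was 5.51 to 141. Of the genes, 28 share exon sequence with a gene on the opposite strand and 8 on the same strand.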

Additional observations from a re-analysis of the deposited data

Results flagged for a closer look

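Of 168 groups of 5 libraries checked (21 named members in 8 groups), 10 held a library far from the other 4; chance alone marks about 1 in 20 groups. In CPM, Mrpl24 was at 43.19 in DBA male control replicate 4 against 28.97 to 32.98 in the others, and at 27.43 in DBA female RCF replicate 4 against 30.62 to 31.74. Mrpl55 was at 9.255 in DBA male control replicate 4 (others 11.76 to 12.55) and at 21.65 in C57 female RCF replicate 1 (16.85 to 18.2). Mrpl37 was at 42.82 in DBA male control replicate 2 (35.18 to 36.83). In C57 female RCF replicate 4, a library with high Slc17a7, Mrpl42 was at 61.44 (37.48 to 41.81) and Mrpl48 at 58.86 (42.71 to 47.25). Mrpl35 was at 23.92 in C57 female RCF replicate 5 (30.75 to 32.69), Mrps30 at 19.43 in DBA female RCF replicate 3 (20.97 to 21.32) and Mrps35 at 15.72 in C57 male control replicate 3 (18.92 to 20.05).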

How the results depend on the processing

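In DBA females the count of called members, 1 (Mrpl20), was 0 with the compared libraries alone, with marker covariates, without the low count filter, with a replicate block (adjusted p of Mrpl20 0.0549), with RLE size factors (0.0541) and without the 4 libraries with high Slc17a7 (0.0579); with libraries left out in turn it was 0 to 1. Among strain differences in controls, 17 became 8 with the compared libraries alone, 7 without the low count filter, and 10 to 17 with a library left out, the lowest without C57 female control replicate 2; all 8, 7 and 10 were among the 17. The count in RCF mice, 18, was 13 to 26 under all alternatives, and the 7 remaining counts were 0 in all of them. The replicate block changed no other count by over 1.5 times; replicate numbers do not pair libraries (correlations of same-numbered deviations -0.274 to 0.176). With a library left out, Mrpl20 ran from -0.0754 to 0.0122 in C57 females, turning sign without control replicate 3 (0.0091) or 5, and from -0.0637 to 0.0016 in C57 males, turning sign without control replicate 2. Over 78 values for named members and 2285 alternatives, these were the 3 that turned; 99 lost a call, 4 gained one. The calls of Mrpl20, Mrpl37, Mrpl49, Mrps23, Mrps30, Mrps34 and Mrpl50 in controls and of Mrps35 in RCF mice were lost under at least 1 alternative, and those of Mrps14, Mrpl3, Mrpl55, Mrpl35, Mrpl48 and Mrpl41 under none. Where the cause of a change was not built into the alternative, it was not tested. The 5 libraries a group limit these comparisons to a median SE of 0.09 (log2) per member.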
